A study of Mus musculus with 12 samples.

Results

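Abca4 and 7 of its paralogs, Abca1, Abca2, Abca3, Abca5, Abca7, Abca8a and Abca8b, were examined in rods and retina of Abca4 knockout mice and controls. They were chosen by gene name as the deposited tables write it. These 8 genes are 8 of the 56748 entries in the deposited table of scaled counts and 8 of the 55372 entries in the deposited table of TPM (a share of a library that is scaled by transcript length), and they are 8 of the 16 Abca genes in those tables. The question was at what level each transporter is present in rods and in the retina, and whether any paralog is higher where Abca4 is missing.

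RNA was sequenced from 2-month-old mice in 4 groups of 3 libraries. Controls were labelled RiboTag; i75-Rod-Cre; Abca4+/+, and the knockout (Abca4Ko) was labelled RiboTag; Abca4-/-; i75-Rod-Cre. Mice of both genotypes thus carried RiboTag, a tagged form of the ribosomal protein Rpl22, and a Cre transgene that switches the tag on in rods. Rod TRAP (translating ribosome affinity purification) libraries hold the RNA bound to the immunoprecipitated tagged ribosomes, and retina libraries hold the RNA of the lysate before the pull-down. Rod TRAP values are therefore RNA enriched for that on rod ribosomes, with some RNA of other cells, and retina values are RNA of all cells in the lysate. Fewer cells of a type and less RNA per cell cannot be told apart in either. The labels do not say which animals a library came from, so p-values measure only the spread between these libraries.

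ABCA proteins are large membrane pumps that use ATP to move lipids across a membrane or to hand them to a carrier. ABCA4 sits in the rims of the outer segment discs of rods and cones, where it moves retinaldehyde that is bound to a membrane lipid back to the cytoplasmic face, so that it can be reduced to retinol. Loss of ABCA4 in humans causes Stargardt disease, in which bisretinoid lipofuscin builds up in the retinal pigment epithelium (RPE). ABCA1 exports cholesterol and phospholipid to apolipoproteins, ABCA7 is a related phospholipid exporter, ABCA3 fills the lamellar bodies of lung epithelium with surfactant lipid, and ABCA2 and ABCA5 reside in lysosomes and endosomes. ABCA8A and ABCA8B are the mouse relatives of ABCA8, which has been tied to cholesterol export.

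Members differed in where they lie and in how much sequence they share. In the GENCODE M21 annotation, read by gene name, Abca4 is on chromosome 3, Abca1 on chromosome 4, Abca2 on chromosome 2, Abca3 on chromosome 17 and Abca7 on chromosome 10. Abca5, Abca8a and Abca8b lie on chromosome 11 in a cluster that runs Abca8b, Abca8a, Abca9, Abca6, Abca5. Transcripts of Abca4, Abca1, Abca2, Abca5 and Abca7 held no stretch of 50 bases that is also found in another gene's transcript. Of the 50-base stretches of Abca8a and Abca8b, 1.89% and 2.46% were shared with another gene, and 105 of them were shared between the pair. Of those of Abca3, 14.3% were shared, mostly with the transcript D330041H03Rik. Counts of Abca3, Abca8a and Abca8b are uncertain to that extent.

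The start regions of 4 members are shown because these genes stood furthest apart in rods and retina. Abca4 was the highest member in rods. Before the correction for GC content and length given below, Abca1 and Abca5 were the paralogs most enriched in rod TRAP, and Abca8a was the most depleted. Each is the 250 bases before the annotated start, from RefSeq on GRCm38.p6, written 5′ to 3′ in the direction of transcription, with the motifs searched in capitals. Motifs were searched on both strands, and no matches overlapped. The core bound by CRX, a transcription factor of photoreceptors, was spelled TAATCC. The E-box, a site of basic helix-loop-helix factors, was spelled CACGTG. The TATA box, a core promoter element, was spelled TATAAA. The GC box, a site of Sp1 and related factors, was spelled GGGCGG.
Abca4 (chr3:122044210-122044459, plus strand): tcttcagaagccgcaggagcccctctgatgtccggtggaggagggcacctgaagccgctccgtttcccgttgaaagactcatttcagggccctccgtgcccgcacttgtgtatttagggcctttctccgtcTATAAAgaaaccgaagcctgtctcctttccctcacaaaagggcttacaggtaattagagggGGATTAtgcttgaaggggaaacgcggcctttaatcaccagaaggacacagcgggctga
Abca1 (chr4:53159896-53160145, minus strand): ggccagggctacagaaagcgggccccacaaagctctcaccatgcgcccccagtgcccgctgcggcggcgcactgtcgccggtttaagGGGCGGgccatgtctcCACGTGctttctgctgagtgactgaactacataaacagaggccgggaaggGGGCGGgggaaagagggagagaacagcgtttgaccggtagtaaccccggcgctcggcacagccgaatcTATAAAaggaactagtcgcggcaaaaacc
Abca5 (chr11:110337717-110337966, minus strand): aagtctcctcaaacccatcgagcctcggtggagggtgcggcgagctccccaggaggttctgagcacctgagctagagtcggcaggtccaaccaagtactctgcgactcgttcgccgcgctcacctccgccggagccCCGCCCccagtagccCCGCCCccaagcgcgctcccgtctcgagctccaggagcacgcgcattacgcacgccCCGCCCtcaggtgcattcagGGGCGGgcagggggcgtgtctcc
Abca8a (chr11:110095938-110096187, minus strand): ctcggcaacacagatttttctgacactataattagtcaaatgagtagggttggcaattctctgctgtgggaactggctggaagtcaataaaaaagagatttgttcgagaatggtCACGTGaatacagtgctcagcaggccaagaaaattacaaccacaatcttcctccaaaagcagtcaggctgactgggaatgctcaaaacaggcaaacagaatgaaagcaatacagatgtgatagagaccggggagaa
Among the 8 members, Abca4 was the only gene with the CRX core in this window, as GGATTA beginning 58 bases before the start. The core is not particular to Abca4 within the family. Abca9, which is not among the 8 members, held the core 2 times in its window. It had 1, 0 and 0 scaled counts in control rod TRAP. TAATCC or its reverse was found in 6.38% of 27025 promoters of this length. CACGTG, present in Abca1 and Abca8a, was found in 6.05%, TATAAA, present in Abca4 and Abca1, in 13.0%, and GGGCGG, present 2 times in Abca1, 4 times in Abca5 and once each in Abca3, Abca7 and Abca8b, in 32.9%. GC content was 54.4% for Abca4, 61.6% for Abca1, 69.2% for Abca5 and 43.2% for Abca8a, against a median of 52% over all promoters. These matches are letters in a window and were not tested as binding sites.

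The libraries were compared first. Scaled counts summed to between 17096515 and 17097707 in rod TRAP and between 17860761 and 17862326 in retina, since the authors had scaled each fraction to a common total. Spacing among low values put the reads behind them, in units of 1e+06, at 16.2 to 18.2 in rod TRAP and 14.8 to 23.2 in retina, except that the depth of control retina replicate 3 could not be told from its scaled total. In control mice all 10 rod markers were higher in rod TRAP than in retina, with a median log2 difference of 1.37, and all 8 Müller glia markers were lower, with a median of −4.28. Of the latter, Sox9 met the filter only through retina. Of the 8 oligodendrocyte markers, Mobp was at 0 in all 12 libraries in both tables, and Mog had 0 to 4 scaled counts in every library and was listed at 0 in TPM. Abca4Ko retina replicate 1 stood apart, with the lowest summed level of Müller glia (2602 TPM), RPE (81.2 TPM) and vascular and fibroblast markers (25.8 TPM) of the 6 retina libraries. It also had the highest mitochondrial share of scaled counts, 5.70%, against 1.84% to 3.17% in the other retina libraries. Summed lens markers ran from 16.8 to 22134 TPM across the retina libraries. In rod TRAP they were 163.5 TPM in control replicate 1 and 206.9 and 172.6 TPM in Abca4Ko replicates 2 and 3. The other rod TRAP libraries held 2.0 to 5.4 TPM. The retina libraries of the same genotype and number as those with high values had the highest lens sums. Rod TRAP libraries thus hold some RNA of non-rod cells. Whether low values there, such as those of Abca8a and Abca8b, come from rods was not tested.

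Abca4, as the targeted gene, tests the genotype labels. Control rod TRAP libraries 1 to 3 held 61017, 53193 and 53533 scaled counts of it, and Abca4Ko rod TRAP libraries 1 to 3 held 195, 365 and 13156. In retina it had 38929, 37619 and 38090 in control and 153, 366 and 8124 in Abca4Ko. Every Abca4Ko library lay below every control library of its fraction. Both libraries labelled Abca4Ko replicate 3, however, held far more Abca4 than the other Abca4Ko libraries. As a share of the control mean in TPM, Abca4Ko replicates 1 to 3 held 0.315%, 0.685% and 23.5% in rod TRAP and 0.338%, 1.11% and 24.3% in retina. Values from the libraries labelled Abca4Ko replicate 3 are kept under that label, and genotype differences of the members follow with these libraries and after leaving them out.

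With all libraries, Abca4 was lower in Abca4Ko by a log2 difference of −5.79 (SE 1.81, 95% interval −10.73 to −0.86) in rod TRAP and of −5.60 (SE 1.59, 95% interval −9.90 to −1.29) in retina. Neither passed the test, with limma adjusted p = 0.413 and 0.3998. Without the library labelled Abca4Ko replicate 3, Abca4 differed by −7.63 in rods (limma adjusted p = 2.14e-06) and by −7.22 in the lysate (limma adjusted p = 2.30e-08), and these were the only alternatives of 15 in each fraction under which Abca4 passed.

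Levels of different members were compared in TPM, which is per length. In control rod TRAP, Abca4 had 991.6, 876.7 and 889.7 TPM, or 919 ± 62.9 (SD, n = 3). The next member, Abca3, had 25.2, 21.3 and 20.7 TPM, or 22.4 ± 2.44 (SD, n = 3). Abca4 was thus 41.2 ± 1.82 times as high as Abca3 (SD over 3 libraries), and it made up 91.4% ± 0.142 (SD, n = 3) of the summed TPM of all 16 Abca genes. After Abca3 came Abca5 (18.6 ± 2.86 TPM), Abca1 (16.2 ± 0.757), Abca7 (13.4 ± 1.39) and Abca2 (11.8 ± 1.51), each as mean ± SD of 3 libraries. Ranges of neighbours in that order overlapped, except that Abca1 was above Abca7 in all libraries. Abca8a, at 1.9, 1.1 and 0.6 TPM, and Abca8b, at 0.2 TPM in each library, were lowest.

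In control retina, Abca4 had 520.0, 581.8 and 494.1 TPM, or 532 ± 45.1 (SD, n = 3), and made up 83.4% ± 0.918 of the family sum. The order beneath it differed from that in rods. Abca8a was next at 31.3 ± 0.850 TPM, followed by Abca2 at 29.3 ± 5.78 and Abca3 at 21.4 ± 2.31 (SD, n = 3 each), with overlapping ranges between neighbours. Abca7 had 13.3 ± 1.19 TPM, apart from Abca3 above and Abca5 below. Abca5 (3.90 ± 1.61), Abca1 (2.47 ± 0.896) and Abca8b (2.37 ± 0.981) were lowest and overlapped from each to the next.

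**Figure D1:**
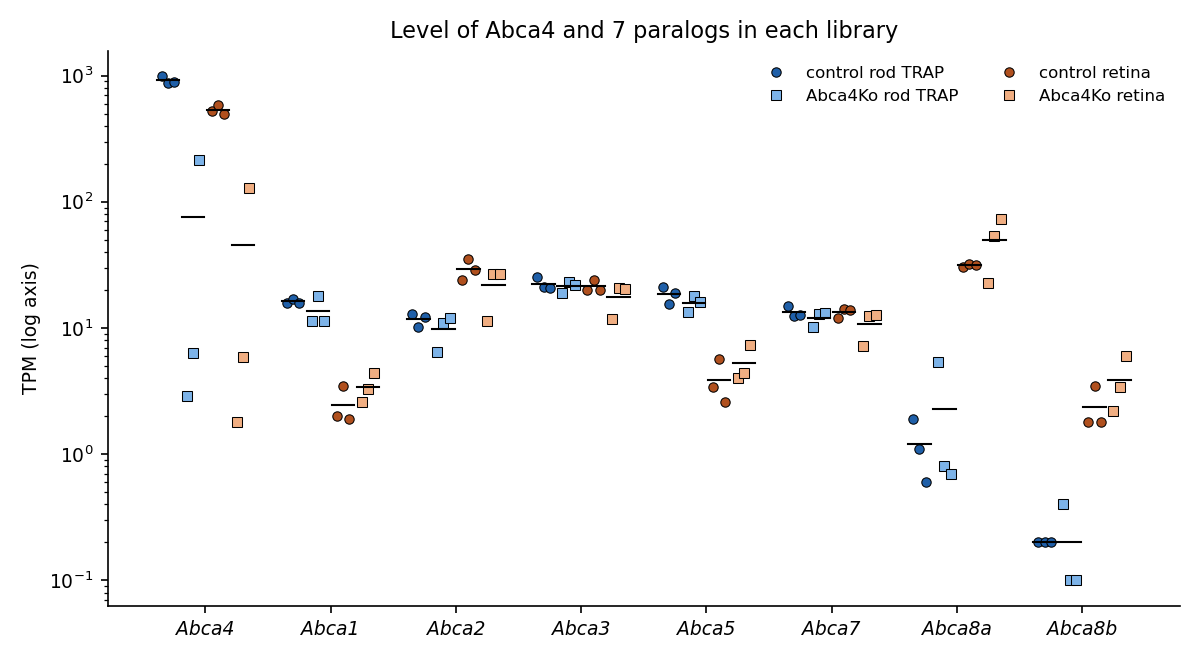
TPM on a log axis of Abca4 and its 7 paralogs in each of 12 libraries (points; circles control, squares Abca4Ko, blue rod TRAP, orange retina), with a bar at the mean of the 3 libraries. Abca4 lies near 919 TPM in control rods and 532 TPM in control retina, and falls to between 1.8 and 215.9 TPM in Abca4Ko, while the paralogs stay between 0.1 and 73.3 TPM in all groups.

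To place each transporter in rods or elsewhere, rod TRAP was compared with retina within a genotype. In control mice 7 of the 8 members passed the limma test, 4 higher and 3 lower in rod TRAP, where 75.4% of the 16286 genes tested passed (36.6% higher and 38.8% lower). A count near that background is no result about the family, and the members' own differences are what the comparison gives. These differences are relative to a median over all genes of −0.03.

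The lipid exporter Abca1 showed the largest rise of the 8 members. It had 1457, 1573 and 1473 scaled counts in control rod TRAP against 253, 393 and 237 in control retina, with a log2 difference of 3.05 (SE 0.16), or 8.27-fold (95% interval of the percent rise 552 to 949; limma adjusted p = 3.19e-09). Abca5 had 1160, 1144 and 1193 against 338, 377 and 235, with a log2 difference of 2.57 (SE 0.15), or 5.96-fold (limma adjusted p = 1.11e-08). Abca4 itself rose less, by a log2 difference of 1.26 (SE 0.11), or 2.39-fold (limma adjusted p = 3.85e-07). The 95% intervals of Abca1 (2.71 to 3.39) and Abca5 (2.24 to 2.91) lay above that of Abca4 (1.01 to 1.50). With all 12 libraries in 1 fit, which shares the spread of the Abca4Ko groups, Abca4 no longer passed (1.17, limma adjusted p = 0.565).

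The members that fell were Abca8a, Abca8b and Abca2. Abca8a had 20, 53 and 29 scaled counts in control rod TRAP against 1139, 1960 and 1150 in control retina, a log2 difference of −4.45 (SE 0.27), or 21.9-fold lower (limma adjusted p = 1.18e-08). Abca8b had 14, 11 and 10 against 148, 237 and 131, a log2 difference of −2.56 (SE 0.22), or 5.89-fold lower (limma adjusted p = 3.31e-07). The difference of Abca8a was near the median of the 8 Müller glia markers, −4.28. Medians of the microglia (−2.77), RPE (−2.24) and vascular and fibroblast markers (−3.13) are no guide to Abca8b. Of these lists, Tmem119, Aif1, Cdh5 and Col1a1 were at 0 TPM in every control rod TRAP library, and Abca8b was itself low there. Rod TRAP values of Abca8b lie close to the filter of 10 scaled counts, so its fold is understated on this scale. Abca8a differed between the tables in rods, since control replicate 1 had the fewest scaled counts (20) and the highest TPM (1.9). Abca2, known from the myelin-forming cells of the brain, had 713, 686 and 682 scaled counts in control rod TRAP against 2124, 2604 and 2519 in control retina, or 2.11-fold lower (limma adjusted p = 2.92e-06).

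Abca3 and Abca7 were close to even between the fractions. Abca3 gave a log2 difference of 0.39 (SE 0.12, limma adjusted p = 0.0108) and Abca7 of 0.30 (SE 0.13, limma adjusted p = 0.0522). Under the authors' scaling alone, which moved the median of all genes to −0.62, they turned to −0.25 (limma adjusted p = 0.0800) and −0.34 (limma adjusted p = 0.0271), so that Abca7 passed as lower in rod TRAP. The call on Abca3 was also lost without control rod TRAP replicate 1 (limma adjusted p = 0.0859), with median of ratios scaling (0.0514), on the log2(TPM + 1) scale (0.749) and with all 12 libraries in 1 fit (0.0513). Abca7 passed as higher without control retina replicate 3 (0.0400).

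Fraction differences also moved with GC content over all genes. In control mice the median log2 difference was 0.94 among the lowest-GC of 3 equal bins of genes, −0.02 in the middle bin and −0.58 in the highest. After the correction for GC content and length, which was chosen after seeing the data, Abca4 gave 1.56, Abca1 2.84, Abca5 1.16, Abca3 1.00, Abca7 1.25, Abca2 −0.23, Abca8b −3.72 and Abca8a −5.48, and all 8 members passed. Abca2 was thus nearly even between the fractions after the correction, and Abca3 and Abca7 were higher in rods. Abca5 then lay below Abca4 and Abca7, so its place above Abca4 was lost, while Abca1 stayed highest and Abca8a lowest. The authors' scaling alone shifted the calls over all genes to 3415 higher and 9549 lower in control, from 5968 and 6317.

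In Abca4Ko mice, where Abca8b had 17, 7 and 8 scaled counts in rod TRAP and so met the filter only through the retina libraries, 6 of the other 7 members passed, 4 higher and 2 lower, against 64.1% of the 16036 genes tested there (30.4% higher and 33.7% lower). Abca1 was 4.58-fold and Abca5 3.38-fold higher in rod TRAP than in retina, and Abca8a was 24.0-fold and Abca2 1.69-fold lower. Abca8b had 189, 248 and 438 scaled counts in Abca4Ko retina, and no fold or test is given for it because of the way it met the filter. Limma adjusted p was 2.36e-06 for Abca1, 4.34e-06 for Abca5, 1.24e-06 for Abca8a and 0.0328 for Abca2. Abca7 passed here, with a log2 difference of 0.43 (limma adjusted p = 0.0289), and Abca3 gave 0.54 (limma adjusted p = 0.0105). With the GC and length correction Abca2 gave −0.03 and no longer passed (limma adjusted p = 0.876). The call on Abca2 was also lost without Abca4Ko rod TRAP replicate 1 (0.114), Abca4Ko retina replicate 2 (0.163) or Abca4Ko retina replicate 3 (0.130). The call on Abca7 was lost without Abca4Ko rod TRAP replicate 2 (0.0999) or 3 (0.113) or Abca4Ko retina replicate 1 (0.144) or 3 (0.0520), and that on Abca3 without Abca4Ko retina replicate 1 (0.0529). Under the authors' scaling alone Abca3 fell to 0.0011 (limma adjusted p = 0.997) and Abca7 turned to −0.11 (limma adjusted p = 0.633). On the log2(TPM + 1) scale neither passed (limma adjusted p = 0.356 for Abca3 and 0.628 for Abca7), and Abca7 also missed the threshold with median of ratios scaling (0.0823) and with no filter (0.0531). Residual Abca4 gave a log2 difference of 0.93 (SE 2.43, limma adjusted p = 0.765). The pairs of same-numbered libraries differed by 0.75, 0.62 and 1.42, and with the replicate block that pairs them the limma adjusted p was 1.82e-05. The spread of Abca4 in Abca4Ko thus lay between pairs more than within them.

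**Figure D2:**
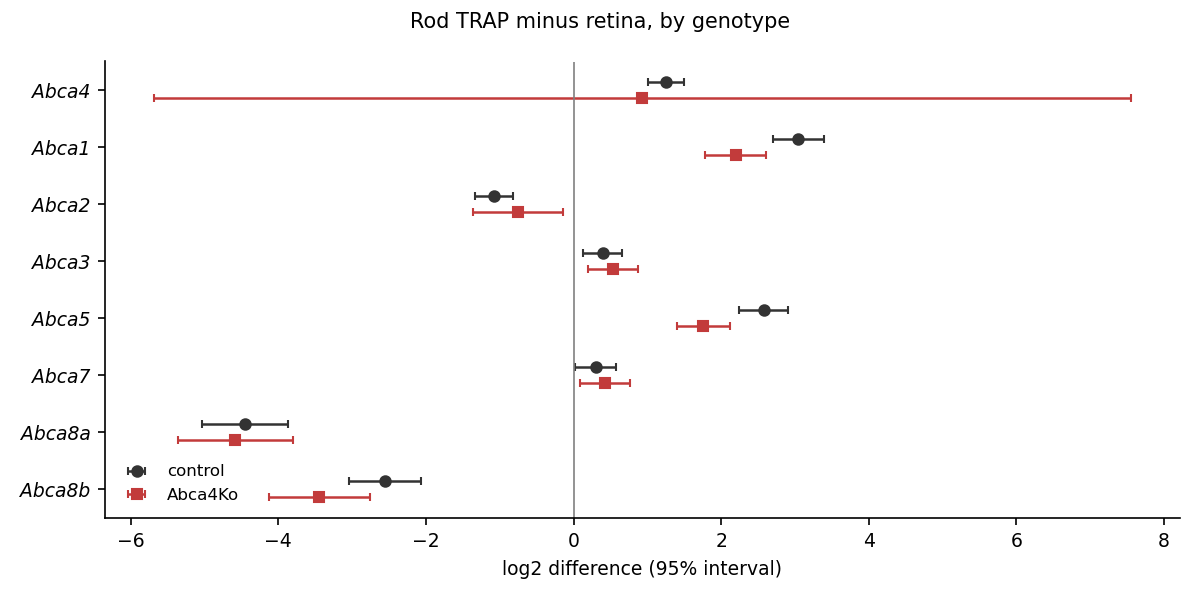
Rod TRAP minus retina in log2 units (x axis) for the 8 members, with 95% intervals from limma on 3 against 3 libraries, in control (black circles) and Abca4Ko (red squares). Abca1 and Abca5 lie at 3.05 and 2.57 in control, Abca8a and Abca8b at −4.45 and −2.56, and the interval of residual Abca4 in Abca4Ko runs from −5.69 to 7.55. The Abca4Ko value of Abca8b is drawn for completeness, since that gene met the filter there only through retina.

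Whether a paralog is higher in rods without Abca4 was asked next. None of the 7 paralogs passed the limma test in rod TRAP, where 1.13% of 13104 genes tested did (148 genes). The 7 include Abca8b, which met the filter on low values through the control libraries, so its own result is not read. All 8 members together gave 0 calls by limma, and 1 member, Abca4, was under an unadjusted 0.05, as were 10.4% of all genes. Log2 differences of the 7 paralogs ran from −0.22 to 0.56 with a median of −0.09, against a median over all genes of 0.00155. Of the 7, 6 were negative. Abca8b is among these 6, and the median is its value, so neither is read as a result about the paralogs. On the log2(CPM + 0.5) scale the groups overlapped for all 7 paralogs, while 17.6% of all genes did not overlap.

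Abca1 had 1164, 1675 and 1062 scaled counts in Abca4Ko rod TRAP against 1457, 1573 and 1473 in control, with the highest value of all in Abca4Ko replicate 2. Abca3 had 987, 1044 and 1053 against 1249, 1036 and 1030. Abca5 had 998, 1193 and 1119 against 1160, 1144 and 1193. The groups overlap in all 3 genes, and control replicate 1 is the high value for Abca3. Abca7 had 680, 764 and 797 against 906, 749 and 768, and Abca2 had 487, 718 and 694 against 713, 686 and 682. Abca4Ko replicate 1 was the lowest library of the 6 for Abca2, Abca3, Abca5 and Abca7. Its mitochondrial share of scaled counts was 0.186%, against 0.0472% to 0.0623% in the other rod TRAP libraries. Without it the paralog differences ran from −0.35 (Abca8b, not read) to 0.094 on the log2 scale, and none passed (lowest limma adjusted p = 0.570).

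Intervals of the genotype difference in rod TRAP are given from the main fit alone and are unadjusted. That fit includes Abca4Ko replicate 1 and the library labelled Abca4Ko replicate 3, which held 23.5% of the control level of Abca4. No intervals are given without these libraries, so the upper ends do not bound a rise in rods without Abca4. For the 5 more abundant paralogs the 95% interval of each change ended at 5.99% (Abca1), 8.23% (Abca2), 8.73% (Abca3), 7.47% (Abca5) and 8.21% (Abca7) above control. The lower ends were 30.9% below control for Abca1 and between 16.0% and 24.1% below for the other 4. For the scarce Abca8a the interval was wide, from −21.4% to 176%. No interval is given for Abca8b because of the way it met the filter. Abca8a had 98, 38 and 33 scaled counts in Abca4Ko and 20, 53 and 29 in control, with Abca4Ko replicate 1 far above the rest.

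In TPM, the 7 paralogs summed to 83.8 ± 7.69 in control rods and to 75.0 ± 8.76 in Abca4Ko rods (SD, n = 3 each), with overlapping ranges of 77.9 to 92.5 and 66.0 to 83.5. The sum of all 16 Abca genes was 1006 ± 70.2 TPM in control rods and 153 ± 123 in Abca4Ko rods. In the control rods Abca4 was 10.7 to 11.3 times the sum of the 7 paralogs. Without the library labelled Abca4Ko replicate 3, log2 differences of the paralogs ran from −0.20 to 0.83, and none passed (lowest limma adjusted p = 0.489).

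Summed cone markers were 465.5 to 593.3 TPM in Abca4Ko rod TRAP and 390.5 to 418.9 TPM in control rod TRAP. All 8 cone markers were higher in Abca4Ko, with a median log2 difference of 0.40. None passed the test, with Arr3 closest (limma adjusted p = 0.0564). By unadjusted limma p, 7 of the 8 were under 0.05, against 10.4% of all genes. Rod markers gave a median of 0.05. The part of these cone values in the members' differences was not tested.

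In retina 0 of 8 members passed the limma test either, where 0.106% of 16964 genes tested did (18 genes). Differences of the paralogs were larger than in rod TRAP and fell into 2 sets. Of the 7 paralogs, 4 were higher in Abca4Ko by 0.52 to 0.69 and 3 were lower by between −0.58 and −0.34 on the log2 scale. On the log2(CPM + 0.5) scale, after trimmed mean scaling, Abca4Ko and control libraries did not overlap for 5 of the 7, against 19.9% of all genes tested. Abca4 and the 4 higher paralogs were under an unadjusted limma 0.05, as were 12% of all genes. Limma adjusted p ran from 0.3998 to 0.426 over the 7 paralogs.

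Higher in Abca4Ko retina were Abca5, Abca8a, Abca8b and Abca1. Abca5 had 428, 423 and 636 scaled counts against 338, 377 and 235 in control, with a log2 difference of 0.64 (SE 0.22). Abca1 had 351, 398 and 508 against 253, 393 and 237, with 0.52 (SE 0.21). Abca8a had 1325, 2221 and 3089 against 1139, 1960 and 1150, with 0.61 (SE 0.26), and Abca8b had 189, 248 and 438 against 148, 237 and 131, with 0.69 (SE 0.28). In all 4 genes the highest library was the one labelled Abca4Ko replicate 3. Abca5 did not overlap between genotypes on either scale. Abca1 overlapped in scaled counts, where Abca4Ko replicate 1 lay below control replicate 2, but not in log2(CPM + 0.5), and Abca8a and Abca8b overlapped on both.

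Lower in Abca4Ko retina were Abca2, Abca3 and Abca7. Abca2 had 857, 2266 and 2135 scaled counts against 2124, 2604 and 2519 in control, with a log2 difference of −0.58 (SE 0.27). Abca3 had 785, 1288 and 1220 against 1319, 1438 and 1349, with −0.35 (SE 0.17), and Abca7 had 638, 979 and 948 against 989, 1075 and 1146, with −0.34 (SE 0.17). In all 3 genes Abca4Ko replicate 1 was the lowest library by a wide margin. Genotypes did not overlap for Abca3 and Abca7 on either scale, and overlapped for Abca2 only in scaled counts. Without that library the differences were −0.21 for Abca2, −0.20 for Abca3 and −0.22 for Abca7. Without the library labelled Abca4Ko replicate 3, the 4 higher genes kept differences of 0.38 to 0.50, and the 3 lower genes were at −0.72 (Abca2), −0.38 (Abca3) and −0.37 (Abca7), with none past the test (lowest limma adjusted p = 0.648).

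Cell type markers moved between genotypes in retina as well. Summed cone markers were 1075.6 to 1500.9 TPM in Abca4Ko retina and 1555.1 to 1791.4 TPM in control retina, with 7 of 8 lower and a median log2 difference of −0.30, opposite in sign to rod TRAP. All 8 RPE markers were lower, with a median of −0.51, and their sums overlapped, at 81.2 to 207 TPM against 150.5 to 369. Müller glia markers gave a median of 0.06, with 5 of 8 higher and sums of 2602 to 4392 TPM against 2947 to 4818. Medians were −0.0016 for rod, −0.25 for microglia and −0.37 for vascular and fibroblast markers. No marker of these lists passed the test, and their part in the members' differences was not tested.

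**Figure D3:**
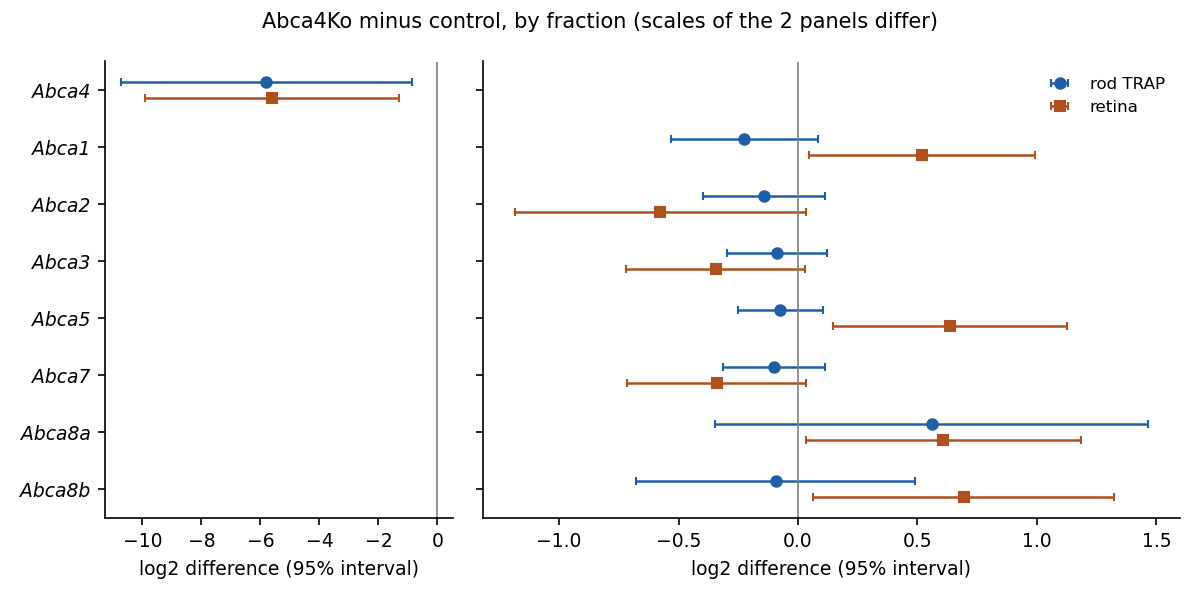
Abca4Ko minus control in log2 units (x axis, with a wider scale in the left panel for Abca4) for the 8 members, with 95% intervals from limma on 3 against 3 libraries, in rod TRAP (blue circles) and retina (brown squares). Abca4 lies at −5.79 and −5.60. The paralogs lie within −0.22 to 0.56 in rod TRAP and split into 4 higher and 3 lower in retina. The rod TRAP value of Abca8b is drawn for completeness, since that gene met the filter there through the control libraries.

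The 2 sets in retina sorted with the GC content of the transcripts. The 4 higher genes had 39.8% (Abca5), 42.7% (Abca8b), 43.4% (Abca8a) and 47.5% GC (Abca1). The 3 lower ones had 54.8% (Abca3), 57.5% (Abca2) and 58.9% (Abca7). Of the other Abca genes tested in retina, Abca6 (43.7% GC) gave 0.61 and Abca13 (44.1%) gave 0.66. Abca9, at 44.2% GC, departed from this order with −0.10. Over all genes tested in retina, the median log2 difference between genotypes was 0.33 among the lowest-GC of 3 equal bins of genes, −0.04 in the middle bin and −0.21 in the highest. In rod TRAP the same medians were −0.02, 0.01 and 0.02. After each library was corrected for trends with GC content and length, an alternative chosen after seeing the data, the retina differences were 0.36 for Abca1, 0.17 for Abca5, 0.30 for Abca8a, 0.32 for Abca8b, −0.39 for Abca2, −0.18 for Abca3 and −0.13 for Abca7. Whether GC content had a part in the members' differences was not tested beyond this correction.

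**Figure D4:**
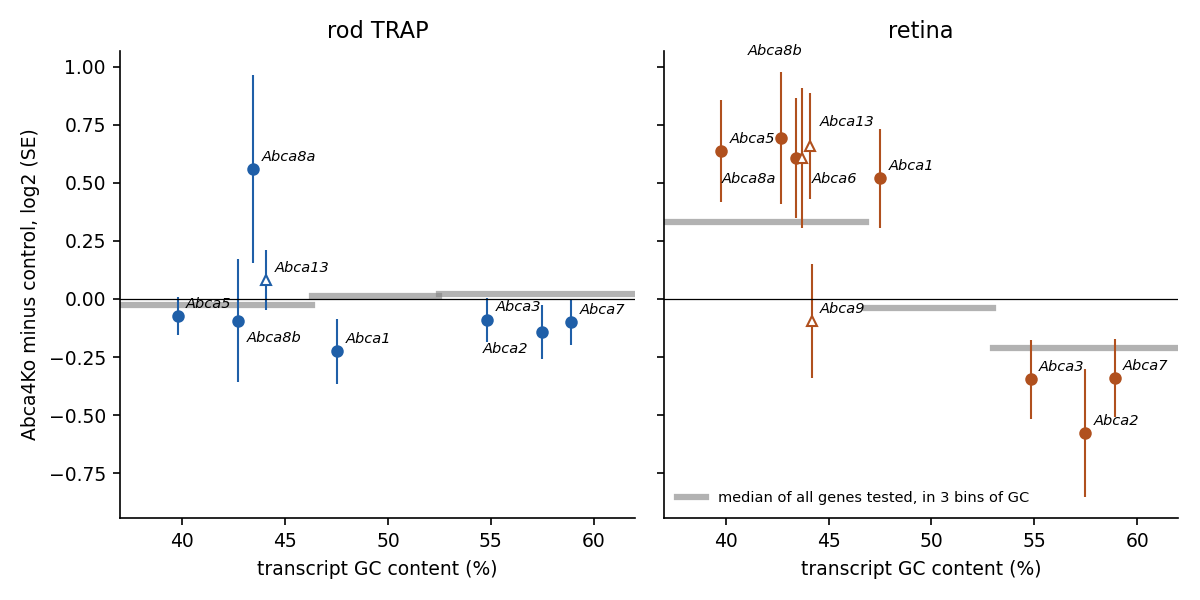
Log2 difference between Abca4Ko and control (y axis, bars are the SE) against transcript GC content (x axis, %) in rod TRAP (left) and retina (right) for the 7 paralogs (filled circles) and for Abca6, Abca9 and Abca13 where tested (open triangles), with the median of all genes tested in each of 3 bins of GC content (grey bars). In retina the grey bars step down from 0.33 to −0.21, the paralogs of 39.8% to 47.5% GC lie at 0.52 to 0.69 and those of 54.8% to 58.9% GC at −0.58 to −0.34. Of the open triangles in retina, Abca6 and Abca13 lie at 0.61 and 0.66 and Abca9 at −0.10. In rod TRAP the grey bars stay within −0.02 to 0.02.

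The difference between the fractions was tested with an interaction term over all 12 libraries. No member passed, where 1 of 17273 genes did (0.00579%). By limma unadjusted 0.05, 2 of 8 members were under the threshold, against 11.3% of all genes. These were Abca1, with an interaction of −0.77 (SE 0.26, 95% interval −1.31 to −0.22), and Abca5, with −0.73 (SE 0.23, 95% interval −1.22 to −0.24), both with limma adjusted p = 0.407. Their enrichment in rod TRAP was thus smaller in Abca4Ko than in control, within a test that neither passed. Without both libraries labelled Abca4Ko replicate 3 the interactions were −0.55 for Abca1 and −0.62 for Abca5, and with the GC and length correction they were −0.54 and −0.20. The median interaction over all genes in the lowest bin of GC content was −0.37.

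Of the other 8 Abca genes, 3 passed the filter on low values. Abca13, a very large transporter of unsettled substrate, had 368, 464 and 492 scaled counts in control rod TRAP against 224, 165 and 138 in control retina, with a log2 difference of 1.99 (SE 0.19, limma adjusted p = 8.08e-07). Abca6 and Abca9 lie between Abca8a and Abca5 in the chromosome 11 cluster. Abca6 had 2, 4 and 3 scaled counts in control rod TRAP against 35, 66 and 43 in control retina, and Abca9 had 1, 0 and 0 against 31, 29 and 25. Both met the filter of 10 scaled counts only through retina, so these values are a description with no test. Abca12, Abca14 and Abca17 had between 0 and 4 scaled counts in every library, and Abca15 and Abca16 had 0 in all 12. In Abca4Ko rods Abca13 differed from control by 0.08 (SE 0.13, limma adjusted p = 0.867). In retina it differed by 0.66, Abca6 by 0.61 and Abca9 by −0.10, with limma adjusted p from 0.3998 to 0.869.

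Genes that work with the family were counted as lists. Of 14 partners of ABCA lipid export (acceptors, carriers and the sterol sensors that set Abca1), the rod TRAP fit of Abca4Ko against control held 11 and the retina fit held 13, and 0 passed in either. Their median log2 differences were 0.09 in rod TRAP and −0.20 in retina. In control mice 5 of the 13 tested were higher and 5 lower in rod TRAP, near the 36.6% and 38.8% of all genes, so the count is no result about the partners. Among the lower ones, Lcat and Pltp met the filter only through retina, so their calls are not read. Abcg1, which passes cholesterol to lipoproteins, rose by 1.19 (limma adjusted p = 5.94e-07), while Apoe, the main lipid carrier of glia, fell by 6.08 on the log2 scale (limma adjusted p = 4.60e-10). All 9 genes that take up or bind retinaldehyde were tested between genotypes, and 0 passed in rod TRAP or retina. Rdh8 and Rdh12, the photoreceptor enzymes that reduce the retinaldehyde released by ABCA4, differed by 0.14 (SE 0.08) and 0.12 (SE 0.10) in rod TRAP, with limma adjusted p = 0.581 and 0.749. In control mice 8 of these 9 were higher in rod TRAP, against 36.6% of all genes, and the exception was Rlbp1, a retinoid carrier of Müller glia and RPE, at −5.45.

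The 4 nearest protein-coding neighbours of Abca4 on chromosome 3 were Abcd3, Arhgap29, Gclm and Dnttip2. In rod TRAP 1 of the 4, Arhgap29, a GTPase activating protein, was called higher in Abca4Ko, against 0.733% of all genes called higher. It had 223, 299 and 279 scaled counts in Abca4Ko and 105, 114 and 156 in control, with a log2 difference of 1.06 (SE 0.16, limma adjusted p = 0.0115). The call held in 11 of 15 alternatives. It was lost without control replicate 1 (limma adjusted p = 0.0773), without control replicate 2 (0.102), on the log2(TPM + 1) scale (0.403) and with all 12 libraries in 1 fit (0.0818). In retina Arhgap29 had 108, 100 and 223 against 59, 47 and 44, with a log2 difference of 1.29 (SE 0.29, limma adjusted p = 0.256). It passed there with all 12 libraries in 1 fit (limma adjusted p = 0.0330). The other neighbours gave −0.02 (Abcd3), 0.38 (Gclm) and 0.04 (Dnttip2) in rod TRAP and 0.30 to 0.65 in retina, none past the test. Without Abca4Ko rod TRAP replicate 1, Gclm passed in rod TRAP at 0.54 (limma adjusted p = 0.0026).

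No gene had a pattern close to that of Abca4 over all 12 libraries. By root mean square distance of log2 values centred on each gene's mean, among 11132 genes, the nearest was Myo7a, a myosin of photoreceptors and RPE, at 2.69, followed by Eps8l1 at 2.74 and Gm10524 at 2.77. Since the likeness was set by the genotype difference, these values are a description. Myo7a had 73, 106 and 113 scaled counts in Abca4Ko rod TRAP against 432, 288 and 298 in control, and 108, 327 and 311 against 765, 701 and 776 in retina. Eps8l1 had 50, 44 and 0 against 582, 971 and 933 in rod TRAP, and 60, 83 and 8 against 709, 1215 and 1209 in retina. Both genes are on chromosome 7, and in each fraction all 3 Abca4Ko libraries lay below the 3 control libraries. For Eps8l1, Abca4Ko replicate 3 was the lowest library in both fractions.

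Over the 6 control libraries alone the nearest gene was Cngb1, a subunit of the cyclic nucleotide-gated channel of rods, at a distance of 0.0284. Bcar3 followed at 0.0310 and Pdia4 at 0.0316. Cngb1 had 40558, 35907 and 37217 scaled counts in control rod TRAP and 35230, 35146 and 35274 in Abca4Ko rod TRAP. Bcar3 lies on chromosome 3 with 2 protein-coding genes between it and Abca4 in the RefSeq annotation. It had 1075, 1102 and 1014 scaled counts in Abca4Ko rod TRAP against 586, 534 and 526 in control, and 717, 685 and 685 against 382, 373 and 386 in retina. In both fractions Abca4Ko and control were apart for Bcar3, which was singled out after its values were seen and was given no test.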

How the data were processed

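Libraries were made by the submitters from 10 ng of rod TRAP RNA and 5 ng of lysate RNA, with a kit for low input. CASAVA 1.8.2, HISAT2, DESeq2, edgeR and the build GRCm39 are named in the submitters' processing notes, without their order, and reference sequence and annotation used here are GRCm38, so no gene positions are given beyond the promoters shown. The authors deposited a table of scaled counts, a score in which reads per gene were brought to a common total within a fraction and rounded, and a table of TPM to 1 decimal. Both tables named the same 12 libraries, and over 10277 genes all 12 columns had their highest correlation with the column of that name (lowest r 0.917). The handling of reads that map to several places is not given in the sources used here.

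Scaled counts were adjusted with trimmed means of M values (trims 0.3 and 0.05), expressed as log2(CPM + 0.5) and tested with limma 3.58.1 (trend, robust; R 4.3.3) on genes with at least 10 scaled counts in at least 3 libraries. Tests were two-sided with Benjamini-Hochberg adjustment over all genes of a fit and a threshold of 0.05. Fold changes are on the log2(CPM + 0.5) scale, which understates the change of low genes, and intervals are not adjusted. The genotype was compared in each fraction and the fraction in each genotype, from 6 libraries each, and the interaction from 12. The steps were tested on simulated data. Values were tabulated in Python 3.11.15 (numpy 2.4.6, pandas 2.3.3), and figures used matplotlib 3.10.9.

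All 8 members are named whatever their values. The other Abca genes, export partners, retinaldehyde genes, neighbours and marker lists were fixed by name, and the 3 genes most like Abca4 by distance over genes of mean CPM at least 5. Members and lists were chosen with earlier results of these data known. Promoter sequences matched 8 of 8 members by symbol. Deviations from group means were shared by libraries of the 2 fractions with 1 number (r 0.275, 0.200 and 0.160 in control, 0.433, 0.206 and 0.372 in Abca4Ko). In the tests, these numbers were taken as pairs within a genotype only with the replicate block. The main fits left the pairing out, so their p-values and intervals between fractions and for the interaction are unpaired.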

Additional observations from a re-analysis of the deposited data

How the results depend on the processing

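No paralog passed the limma test between genotypes under any of the 15 alternatives in either fraction (scaling, filter, pseudocount, TPM table, each library left out, replicate block, all libraries in 1 fit, GC and length correction). The number of members past the test ranged from 0 to 1 when a library was left out, in rod TRAP and in retina alike, and the 1 was Abca4 without the library labelled Abca4Ko replicate 3. With each library left out, the rod TRAP genotype difference ranged from −0.14 to 0.00287 for Abca3. For Abca8b it ranged from −0.35 to 0.052, which is not read because of the way that gene met the filter. The rod TRAP minus retina difference of Abca4 in Abca4Ko ranged from −0.92 to 2.54. The interaction ranged from −2.09 to 1.37 for Abca4 and from −0.50 to 0.26 for Abca8a. With the GC and length correction Abca5 was at 0.016 in rod TRAP. The interaction of Abca8a was 0.017 at log2(CPM + 0.1), 0.31 with the GC and length correction, with or without the replicate block, and 0.42 without both libraries labelled Abca4Ko replicate 3. The authors' scaling alone gave rod TRAP minus retina differences of −0.25 (Abca3) and −0.34 (Abca7) in control and −0.11 (Abca7) in Abca4Ko.

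The replicate block left 7 members called between fractions in control and gave 8 in place of 7 in Abca4Ko (Abca8b, which met the filter only through retina, included), where Abca4 was added at 0.93, and it changed no other call on a member. Between genotypes the numbers do not pair libraries, and the block gave 151 genes in place of 148 in rod TRAP and 46 in place of 18 in retina. Counts over all genes rested on few libraries. In rod TRAP the 148 calls became 594 without Abca4Ko replicate 1, 30 to 36 without any 1 control library, 43 with TPM and 94 with all libraries in 1 fit. In retina the 18 calls became 1 without Abca4Ko replicate 1 or control replicate 3, 4 without Abca4Ko replicate 2, 10 without control replicate 1, 33 with no filter, 32 with TPM, 62 with all libraries in 1 fit and 28 with the GC and length correction. In Abca4Ko the 10280 fraction calls became 6595 without retina replicate 2, and the 1 interaction call became 2 with TPM and 5 with the GC and length correction, or 15 with the block added. The authors' scaling moved the Abca4Ko fraction calls to 2282 higher and 7814 lower. Fewer than 20 scaled counts lie behind each rod TRAP value of Abca8b, so counting error alone makes these values imprecise.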
